A study of Mus musculus with 6 samples.

Results

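The genes described here are 37 members of cholesterol and fatty acid synthesis, chosen by name: 18 enzymes of sterol synthesis, 3 regulators, 2 genes of sterol handling and 14 genes of fatty acid synthesis and use. Their names matched 54 of the 55681 probes on the array that are not controls, with Msmo1 found under its older symbol Sc4mol. A probe entered the test if at least 3 of the 6 arrays had it well above background, and a gene with several tested probes was represented by the brightest. By this rule 36 of the 37 members were tested among 24344 targets. All 36 were well above background on all 6 arrays, while Fads2, the delta-6 desaturase of polyunsaturated fatty acids, was not tested.

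Skin RNA came from male C57BL/6 mice aged 6 to 8 weeks, whose backs were shaved. The UVB group of 3 mice received ultraviolet B light on the back, at a dose of 180 mJ/cm2 given 3 times weekly over 2 weeks, from 2 days after shaving. The control group of 3 mice was kept in the dark. The UVB mice were anesthetized for exposure, and the labels mention no anesthesia for the controls. Each mouse gave 1 Agilent array in 1 colour, and how long after the last exposure skin was taken is not stated in the labels. The level of a gene is given as log2 signal relative to the 75th percentile of its array, so that a difference of 1 is a 2-fold change. Levels are compared between arrays, and between genes only as shares of a summed marker signal.

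Cells build cholesterol from acetyl-CoA through mevalonate, isoprenoid pyrophosphates, squalene and lanosterol. The same acetyl-CoA is carboxylated to malonyl-CoA and assembled into fatty acids, which elongases and desaturases then modify. Genes of both arms are targets of the SREBP transcription factors, which Insig proteins hold in the endoplasmic reticulum when sterols are plentiful. SREBP-2, the product of Srebf2, acts mainly on sterol genes and SREBP-1, the product of Srebf1, mainly on fatty acid genes. In skin, keratinocytes need cholesterol and fatty acids for the permeability barrier, and sebaceous glands are rich in both pathways.

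The arrays had 59305 spots that are not controls, of which 54.9% to 63.3% were well above background per array, and none was saturated. The 75th percentile of signal lay between 363 and 519 in controls and between 302 and 352 after UVB, with control array 1 at 363. As a check of the skin label, all 7 basal and all 7 differentiated keratinocyte markers on the lists were bright enough to be tested. Several marker lists of skin cell types changed with UVB, as given after the members. With 3 arrays a group, their number sets the precision.

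After UVB, 7 sterol enzymes, 1 sterol handling gene and 2 fatty acid genes fell, and no member rose. Of the 36 tested members, 10 fell (limma, Benjamini-Hochberg adjusted p under 0.05 over all targets), or 27.8%, where 7.02% of all targets and 7.19% of those well above background on all 6 arrays fell, 5.55% rose and 12.6% were called in either direction. The falls were those of Hmgcs1, Mvd, Fdps, Fdft1, Lss, Msmo1 and Nsdhl among the sterol enzymes, Soat1 among the sterol handling genes, and Acly and Scd1 in the fatty acid arm. At an unadjusted p under 0.05, limma counted 18 members lower and 1 higher. The log2 fold change was negative for 30 of 36 members and positive for 6, where it was positive for 46.7% of all targets. With each alternative scaling, background correction and filter tried, between 28 and 31 members were negative and none was called higher.

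**Figure D1:**
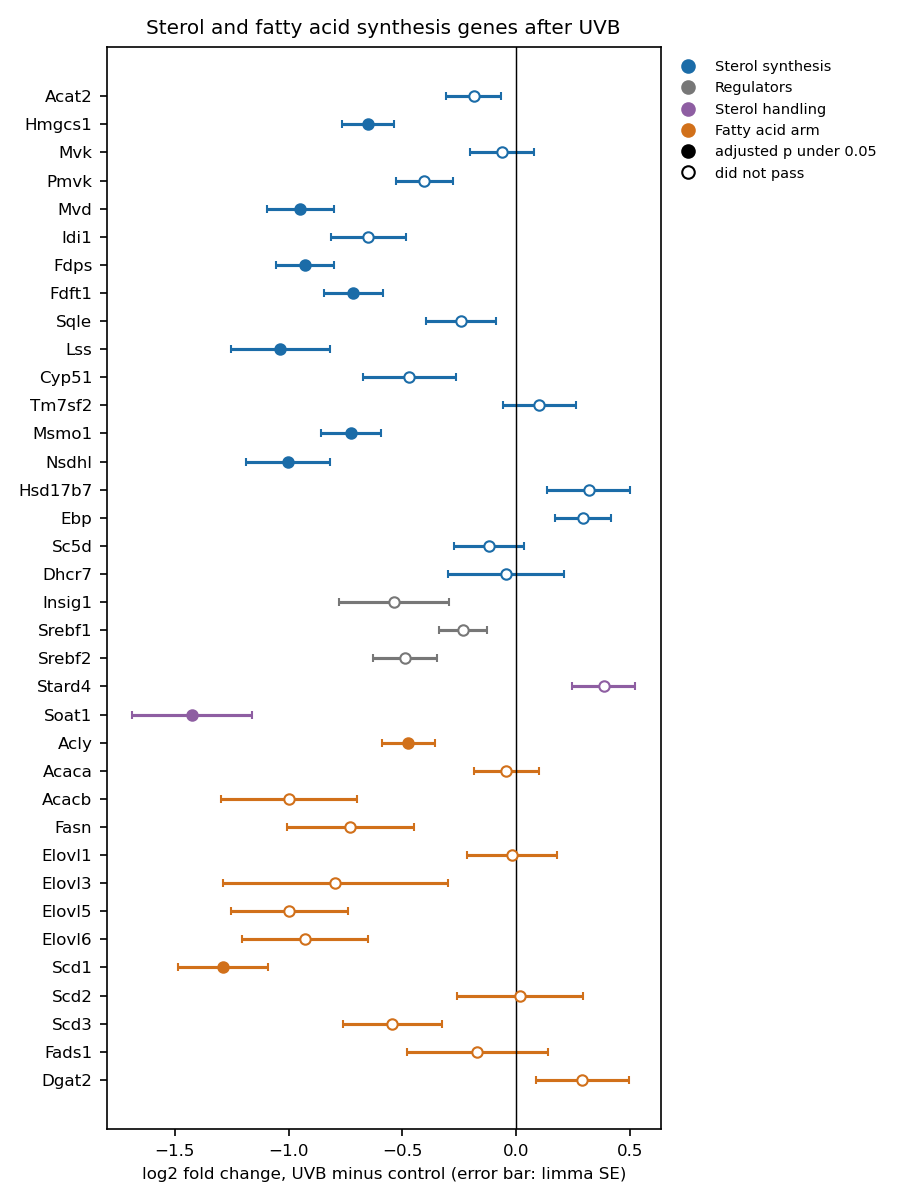
Log2 fold change of each tested member, UVB minus control, with its limma standard error (n = 3 arrays per group). Filled points passed at an adjusted p under 0.05, and all 10 of them lie left of 0, from Acly at -0.47 to Soat1 at -1.42.

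The arms had like medians, and their shares of calls differed at the adjusted threshold. In the sterol arm 7 of 18 enzymes fell, or 38.9%, with a median log2 fold change of -0.44, against a median of -0.04 over all targets. In the fatty acid arm 2 of 13 tested genes fell, or 15.4%, with a median of -0.54. The within-group SD had a median of 0.17 over the sterol enzymes, 0.37 over the fatty acid genes and 0.22 over all targets. The groups did not overlap for 12 sterol enzymes, 10 of them lower and 2 higher after UVB, and for 6 fatty acid genes, all lower, where 38.5% of all targets did not overlap and 22.6% did not and were lower. At an unadjusted p under 0.05, limma counted 9 of 18 sterol enzymes and 7 of 13 fatty acid genes lower. With array weights the same numbers passed at an adjusted p under 0.05. The unlike shares thus depend on the threshold and the fit, and the difference between the arms was not tested.

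The sterol arm opens with the mevalonate steps, and all 7 of these enzymes had negative log2 fold changes, with 3 passing. Hmgcs1, which makes HMG-CoA, stood at 6.87, 7.04 and 6.99 on the control arrays and at 6.31, 6.40 and 6.24 on the UVB arrays. Every UVB array lay below every control array, and Hmgcs1 fell by 0.65 ± 0.12 on the log2 scale (SE, n = 3 per group, limma adjusted p = 0.0205). Its probe is placed on an unassigned contig of chromosome 13 of the mouse build mm9, at 114793 to 114852. Mvd, which decarboxylates mevalonate pyrophosphate to isopentenyl pyrophosphate, stood at 2.31, 2.73 and 2.64 in controls and at 1.68, 1.55 and 1.60 after UVB. The gap between the groups was wider than the range within either, and Mvd was 1.93-fold lower (log2 fold change -0.95 ± 0.15, limma adjusted p = 0.0145). Fdps, which joins isoprenoid units into farnesyl pyrophosphate, stood at 6.53, 6.47 and 6.66 in controls and at 5.63, 5.75 and 5.49 after UVB. It was 1.90-fold lower (log2 fold change -0.93 ± 0.13, limma adjusted p = 0.00983), the smallest adjusted p among the members.

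The other mevalonate enzymes did not pass. Idi1, which isomerises isopentenyl pyrophosphate, stood at 4.69, 5.19 and 4.83 in controls and at 4.34, 4.31 and 4.11 after UVB, without overlap (log2 fold change -0.65 ± 0.17, limma adjusted p = 0.0531). Pmvk, the phosphomevalonate kinase, also had no overlap between groups (-0.40 ± 0.12, limma adjusted p = 0.0839), and its second probe gave -0.44 ± 0.13. Acat2, the cytosolic thiolase that supplies acetoacetyl-CoA, gave -0.19 ± 0.12. Mvk, the mevalonate kinase, overlapped between groups and gave -0.06 ± 0.14, with a 95% interval from -0.40 to 0.28.

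From squalene onward the enzymes divided, with 4 of 11 falling and 3 of 11 having positive log2 fold changes. Fdft1, squalene synthase, stood at 2.85, 3.12 and 3.15 in controls and at 2.28, 2.36 and 2.33 after UVB. The groups did not overlap, and Fdft1 fell by 0.72 ± 0.13 (limma adjusted p = 0.0214). A second, dim Fdft1 probe, well above background on 3 of 6 arrays, gave -0.12 ± 0.40, and with the mean of both probes the gene did not pass (log2 fold change -0.42, limma adjusted p = 0.224). Lss, which closes the sterol ring to lanosterol, stood at 0.39, 1.08 and 1.02 in controls and at -0.04, -0.20 and -0.39 after UVB. Control array 1 lay closest to the UVB arrays, yet above all of them, and Lss was 2.05-fold lower (log2 fold change -1.04 ± 0.22, limma adjusted p = 0.0318).

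Msmo1 and Nsdhl, which act in turn to remove the methyl groups at carbon 4 of the sterol, both fell. Msmo1 stood at 6.42, 6.71 and 6.66 in controls and at 5.79, 5.98 and 5.85 after UVB (log2 fold change -0.73 ± 0.13, limma adjusted p = 0.0217). Nsdhl stood at 0.74, 1.23 and 1.31 in controls and at 0.16, 0.18 and -0.06 after UVB, and was 2.00-fold lower (-1.003 ± 0.18, limma adjusted p = 0.0223). The second Nsdhl probe gave -0.87 ± 0.19 and was also called over the 33737 tested probes (limma adjusted p = 0.0356). Over those probes, 6.11% fell and 5.09% rose, and of the 51 tested member probes 13 fell and 0 rose. Hsd17b7, the reductase of the same demethylation, stood at 1.11, 1.64 and 1.68 in controls and at 1.72, 1.87 and 1.80 after UVB. Its UVB arrays were all above the controls, but the change did not pass (0.32 ± 0.18, limma adjusted p = 0.281), and its second probe gave 0.00 ± 0.28.

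Of the remaining sterol enzymes none passed. Sqle, squalene epoxidase, gave -0.24 ± 0.15, and Cyp51, the lanosterol 14-demethylase, gave -0.47 ± 0.21, with overlap between groups in both. Ebp, which moves the double bond of the ring, stood at 5.70, 5.95 and 5.91 in controls and at 6.20, 6.18 and 6.06 after UVB (0.29 ± 0.12, limma adjusted p = 0.163). Tm7sf2, a sterol 14-reductase, gave 0.10 ± 0.16, and its second probe -0.06 ± 0.16. Lbr, a nuclear envelope protein with the same reductase activity and not a member, gave -0.51 ± 0.14 (limma adjusted p = 0.0614). The last steps lay near 0, with Sc5d, the lathosterol desaturase, at -0.12 ± 0.16 and Dhcr7, the 7-dehydrocholesterol reductase, at -0.04 ± 0.25 with a 95% interval from -0.66 to 0.57. Dhcr7 uses 7-dehydrocholesterol, which is also the substrate that UVB converts to previtamin D3.

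Promoter windows of 5 of the 7 falling sterol enzymes, those with a window in the table used, are shown because the members share regulation by SREBPs, which bind sterol regulatory elements and act with the factor NF-Y at CCAAT boxes. RefSeq promoter windows of GRCm38.p6, reaching from 250 bases before to 50 bases after a gene's start, were found for 28 of the 37 members. The 250 bases before the start of Hmgcs1 lie at chr13:119690101-119690350 (plus strand), those of Mvd at chr8:122443423-122443672 (minus strand), those of Lss at chr10:76531355-76531604 (plus strand), those of Msmo1 at chr8:64733579-64733828 (minus strand) and those of Nsdhl at chrX:72918271-72918520 (plus strand). Each is written 5′ to 3′ on the strand of its gene, with capitals on TCACNCCAC, a form of the sterol regulatory element, and on CCAAT, in either direction.
Hmgcs1: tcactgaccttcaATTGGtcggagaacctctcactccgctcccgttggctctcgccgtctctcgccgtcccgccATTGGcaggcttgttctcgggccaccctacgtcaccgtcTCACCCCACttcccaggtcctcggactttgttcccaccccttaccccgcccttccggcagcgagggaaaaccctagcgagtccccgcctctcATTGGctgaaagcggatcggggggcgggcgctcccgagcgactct
Mvd: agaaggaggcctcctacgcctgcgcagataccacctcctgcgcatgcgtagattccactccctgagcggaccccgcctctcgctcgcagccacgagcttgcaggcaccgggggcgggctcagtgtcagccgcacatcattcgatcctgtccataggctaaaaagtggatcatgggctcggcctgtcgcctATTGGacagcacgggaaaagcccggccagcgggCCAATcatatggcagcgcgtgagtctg
Lss: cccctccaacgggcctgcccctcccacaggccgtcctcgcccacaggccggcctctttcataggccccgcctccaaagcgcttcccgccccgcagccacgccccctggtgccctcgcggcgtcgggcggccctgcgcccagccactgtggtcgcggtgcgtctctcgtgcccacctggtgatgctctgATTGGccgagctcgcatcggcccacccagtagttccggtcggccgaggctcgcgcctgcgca
Msmo1: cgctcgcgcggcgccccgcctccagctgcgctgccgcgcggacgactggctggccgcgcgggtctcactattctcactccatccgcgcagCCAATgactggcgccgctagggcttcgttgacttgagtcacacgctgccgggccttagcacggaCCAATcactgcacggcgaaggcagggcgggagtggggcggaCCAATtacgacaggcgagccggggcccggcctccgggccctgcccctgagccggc
Nsdhl: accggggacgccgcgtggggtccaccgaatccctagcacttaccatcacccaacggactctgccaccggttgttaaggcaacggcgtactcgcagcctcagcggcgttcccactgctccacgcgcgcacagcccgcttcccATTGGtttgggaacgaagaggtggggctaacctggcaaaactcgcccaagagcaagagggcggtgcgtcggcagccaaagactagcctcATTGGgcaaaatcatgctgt
The sterol element in Hmgcs1 begins at position -137 relative to the start and is the only match to TCACNCCAC among the 28 members, where 246 of 17492 protein-coding genes in the table (1.41%) had one. CCAAT was present in 14 of 15 sterol enzymes and in 5 of 9 genes of the fatty acid arm, against 7402 of 17492 protein-coding genes (42.3%). GGGCGG, the box bound by SP1, was present in 14 of 15 sterol enzymes and 3 of 9 fatty acid genes, against 49.2% of protein-coding genes. Both strands were searched, overlapping matches were each kept, and a gene counted once however many starts it had. All 7 members with a window that fell had CCAAT. Of the 21 other members with a window, the untested Fads2 among them, 16 also had CCAAT, so that the motif was not limited to members that fell. These matches describe letters in a window and do not show binding.

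The regulators had negative log2 fold changes that did not pass. Srebf2 stood at 1.27, 1.25 and 1.29 in controls and at 0.72, 1.01 and 0.62 after UVB. The control arrays lay within a narrow range above all UVB arrays (log2 fold change -0.49 ± 0.14, limma adjusted p = 0.0702). A dimmer second Srebf2 probe gave -0.57 ± 0.13, which was a call in the fit over probes (limma adjusted p = 0.0407). Srebf1 stood at -0.90, -0.92 and -0.89 in controls and at -1.17, -1.17 and -1.05 after UVB, without overlap (-0.23 ± 0.11, limma adjusted p = 0.194). Insig1, an SREBP target that also retains SREBPs, overlapped between groups and gave -0.54 ± 0.24 (limma adjusted p = 0.189).

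One of the 2 sterol handling genes fell. Soat1, which esterifies cholesterol for storage, stood at -0.52, -0.03 and -0.02 in controls and at -1.11, -1.98 and -1.76 after UVB. Every UVB array lay below every control array, and Soat1 was 2.68-fold lower (log2 fold change -1.42 ± 0.26, limma adjusted p = 0.0230). This was the largest fall among the members with the main scaling, while with normexp Soat1 stood at -1.06 and Scd1 at -1.32. Stard4, a carrier of cholesterol between membranes, had probes of opposite sign. The brighter (mm9 chromosome 18, 33361181 to 33361240) gave 0.39 ± 0.14 and the dimmer, spanning 33365863 to 33367852, gave -0.42 ± 0.20, and neither passed (limma adjusted p = 0.133 and 0.213 over probes).

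**Figure D2:**
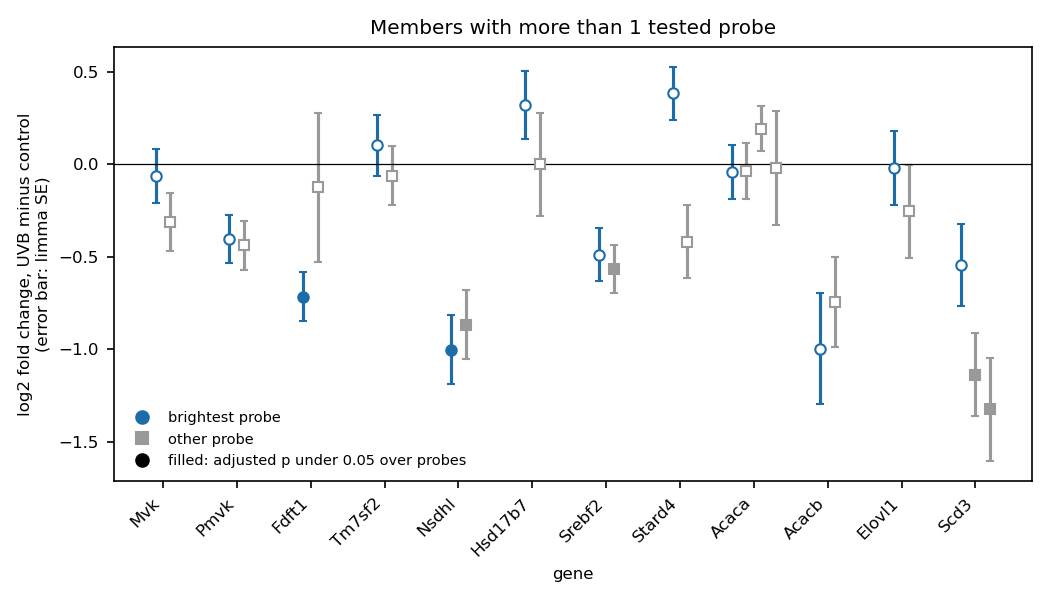
Log2 fold change with limma standard error for each tested probe of the 12 members that have more than 1. Probes of 9 members have 1 sign and those of Tm7sf2, Stard4 and Acaca have both, with the 2 dimmer Scd3 probes at -1.14 and -1.33 below the brightest at -0.54.

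Of the 4 fatty acid genes that supply and assemble acyl chains, 1 fell. Acly, which splits citrate to cytosolic acetyl-CoA for both arms, stood at 5.82, 5.98 and 6.04 in controls and at 5.46, 5.53 and 5.43 after UVB. The groups did not overlap, and Acly fell by 0.47 ± 0.12 (limma adjusted p = 0.0492), close to the threshold, and did not pass in the fit over probes (0.0565). Acaca, the cytosolic acetyl-CoA carboxylase, gave -0.04 ± 0.14 with a 95% interval from -0.39 to 0.31, and its 4 probes ranged from -0.04 to 0.19. Acacb, the mitochondrial carboxylase, stood at 3.18, 3.73 and 4.18 in controls and at 2.92, 2.29 and 2.90 after UVB. The spread among controls was wide, and the change did not pass (-0.997 ± 0.30, limma adjusted p = 0.0784). Fasn, fatty acid synthase, stood at 0.00, 0.94 and 1.02 in controls and at -0.08, -0.04 and -0.11 after UVB. Control array 1 was nearly level with the UVB arrays, and Fasn did not pass (-0.73 ± 0.28, limma adjusted p = 0.135).

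Among the elongases none passed, although 3 of 4 had large negative values. Elovl5, which elongates polyunsaturated fatty acids, stood at 3.03, 3.77 and 4.01 in controls and at 2.70, 2.55 and 2.57 after UVB, without overlap (log2 fold change -0.997 ± 0.26, limma adjusted p = 0.0549). Elovl6, which extends palmitate, stood at 6.15, 6.81 and 7.01 in controls and at 6.11, 5.48 and 5.58 after UVB, with control array 1 and UVB array 1 nearly level (-0.93 ± 0.28, limma adjusted p = 0.0767). Elovl3, an elongase of sebaceous gland and brown fat, spread from 1.73 to 3.31 in controls and from 1.21 to 2.56 after UVB. The groups overlapped (-0.79 ± 0.50, limma adjusted p = 0.322). Elovl1, an elongase of very long saturated chains, gave -0.02 ± 0.20.

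Desaturases gave the clearest call of the arm. Scd1, which puts the first double bond into stearate and palmitate and is abundant in sebaceous glands, stood at 4.83, 5.37 and 5.45 in controls and at 4.07, 3.76 and 3.94 after UVB. The groups did not overlap, and Scd1 was 2.44-fold lower (log2 fold change -1.29 ± 0.20, limma adjusted p = 0.0140). The probe lies on chromosome 19 at 44469387 to 44469446 of mm9. Its neighbour Scd2 gave 0.02 ± 0.28, with a 95% interval from -0.65 to 0.68. Scd3 had 3 probes, the brightest giving -0.54 ± 0.22 (limma adjusted p = 0.150), while the dimmer ones, at -1.14 ± 0.22 and -1.33 ± 0.28, were both called in the fit over probes (limma adjusted p = 0.0285 and 0.0342). The Scd genes are close paralogs, and whether a probe of one binds transcripts of another was not tested.

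The rest of the arm did not pass. Fads1, the delta-5 desaturase, overlapped between groups (-0.17 ± 0.31). Dgat2, which adds the last acyl chain of triglycerides, stood at 6.32, 6.72 and 7.05 in controls and at 6.91, 7.12 and 6.93 after UVB (0.29 ± 0.20, limma adjusted p = 0.376).

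The arrays within a group were not alike for these genes. Control array 1 gave the lowest of the 3 control values for all 13 fatty acid genes and for 15 of 18 sterol enzymes, against 32.4% of all targets. That array also had the lowest 75th percentile of the controls, as given above, and the part of either in the results was not tested. Without control replicate 1, 4 fatty acid genes fell, with Fasn at -1.05, Elovl5 at -1.28 and Elovl6 at -1.18 joining Scd1 (limma adjusted p = 0.0224, 0.0212 and 0.0489), while Acly did not pass.

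**Figure D3:**
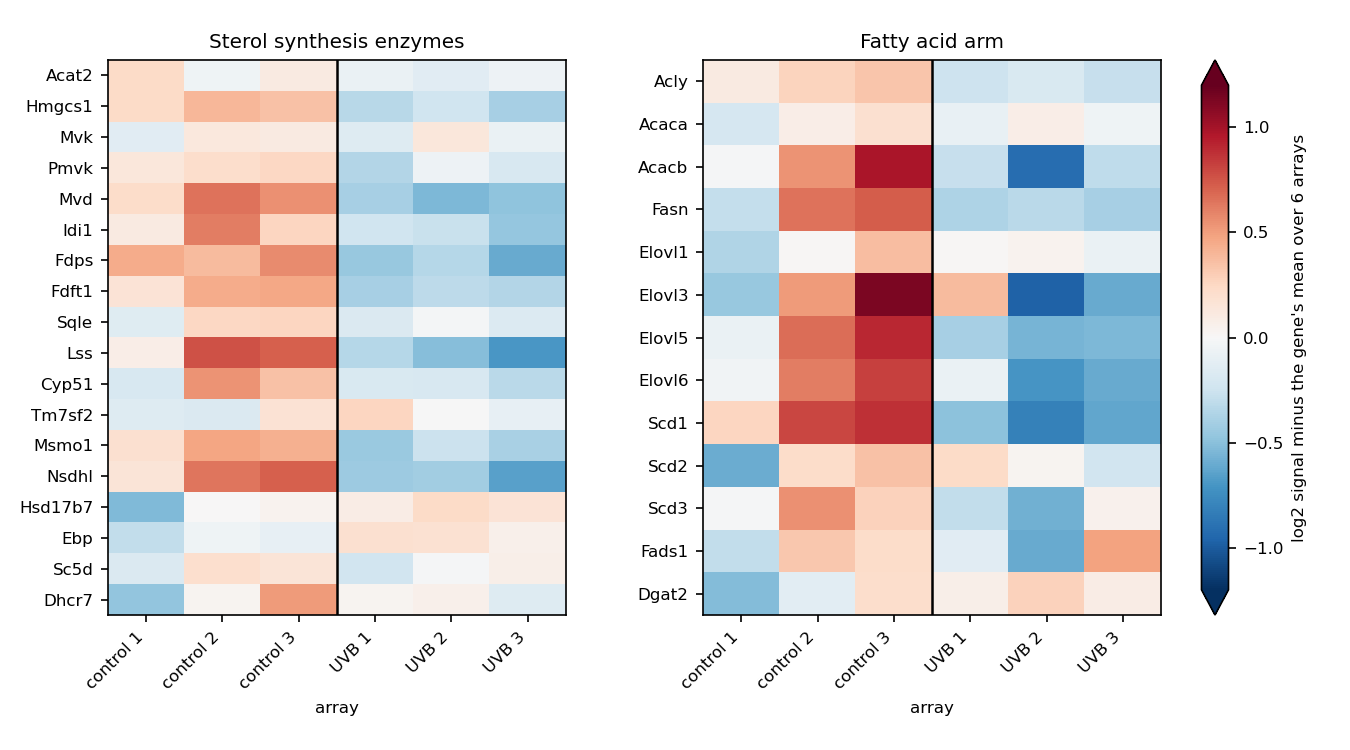
Log2 signal of each tested gene of the 2 arms on each array, minus the mean of that gene over the 6 arrays, in red where higher and in blue where lower. Control array 1 is the palest of the control arrays or blue in most rows of the fatty acid panel, while the falling sterol enzymes are red on all control arrays and blue on all UVB arrays.

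The number of calls depended on which array was left out, with 12 members lower without control replicate 1 and 1 to 5 without any other. Of the sterol enzymes, 7, 1 and 2 fell without control replicates 1, 2 and 3, and 1, 4 and 2 without UVB replicates 1, 2 and 3, while over all targets the count fell from 1709 to between 339 and 1078. In the fatty acid arm the counts were 4, 0 and 1 without control replicates 1, 2 and 3 and 1 without each UVB replicate. Fdps passed with each array left out in turn (limma adjusted p = 0.0240 to 0.0446), and Scd1 passed except without control replicate 2 (0.0606). Mvd passed except without control replicate 2 or UVB replicate 1. Acly passed in none of these fits.

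Sebaceous gland markers varied across the arrays alongside the fatty acid arm, as did triglyceride and wax genes. Relative to each gene's own mean, the median of the fatty acid arm was -0.20, 0.51 and 0.37 in controls 1 to 3 and -0.14, -0.56 and -0.28 in UVB mice 1 to 3. The same measure over 10 tested sebaceous gland markers was -0.05, 0.46 and 0.71 in controls and -0.05, -0.63 and -0.65 after UVB. Control array 1 and UVB array 1 were thus level in the markers, and nearly so in the fatty acid genes. Triglyceride and wax genes gave -0.03, 0.44 and 0.57 in controls and -0.08, -0.58 and -0.52 after UVB. Control array 1 was also the lowest control for barrier lipid genes (-0.50, -0.23 and 0.14) and differentiated keratinocyte markers (-0.91, -0.61 and -0.19). For basal keratinocyte markers it was the highest (0.27, 0.15 and 0.23). For the sterol enzymes the median was 0.09, 0.32 and 0.31 in controls and -0.24, -0.16 and -0.26 after UVB, without overlap.

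Of these 10 sebaceous markers 3 fell, 1 rose and 6 did not pass, with a median log2 fold change of -0.95 and 8 of 10 negative. Pparg, a nuclear receptor of sebocytes and adipocytes, changed by -1.53 ± 0.16, Mgst1, a glutathione transferase, by -1.17 ± 0.17 and Cidea, a lipid droplet protein, by -1.18 ± 0.23, while Ppp1r1b, a phosphatase inhibitor, rose by 0.72 ± 0.16. The wax synthases Awat1 (-0.96 ± 0.52) and Awat2 (-1.02 ± 0.45) overlapped between groups. The log2 of the summed marker signal ranged from 9.27 to 9.42 in controls and from 9.18 to 9.53 after UVB. Most of that sum was Krt79, a keratin of the gland duct, whose own level ran from 8.995 to 9.05 in controls and from 9.04 to 9.38 after UVB (0.18 ± 0.13). Far2, a wax-forming reductase, did not exceed background clearly on any of the 6 arrays. In whole skin, fewer cells of a type and less RNA per cell cannot be told apart, and the part of sebaceous glands in the results was not tested.

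**Figure D4:**
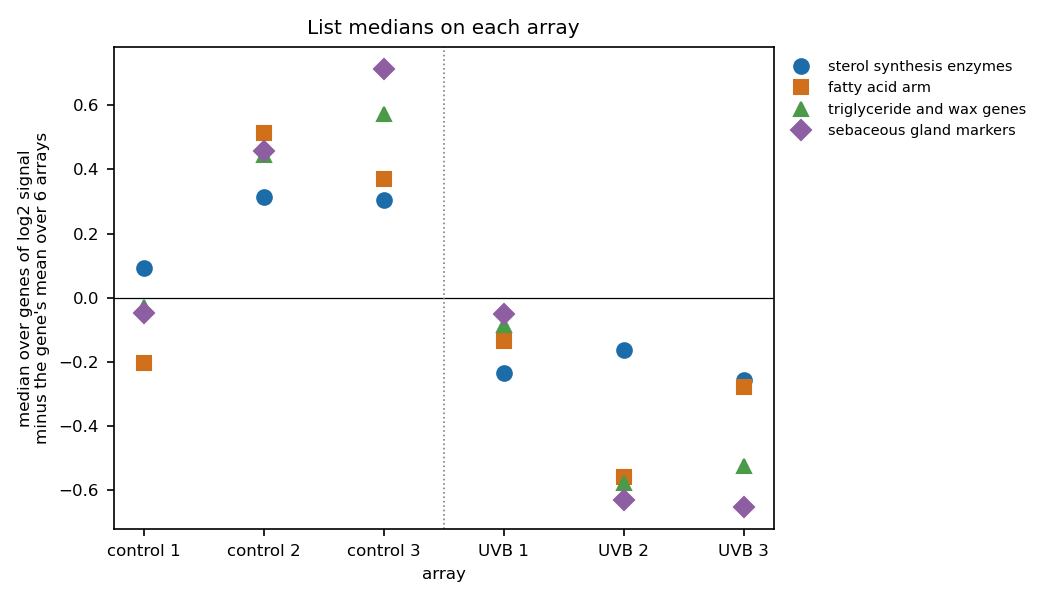
Median over the genes of each list, on each array, of log2 signal minus the gene's mean over 6 arrays. The sterol medians lie from 0.09 to 0.32 in controls and from -0.26 to -0.16 after UVB, while the fatty acid medians of control array 1 (-0.20) and UVB array 1 (-0.14) overlap.

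Of 11 adipocyte markers 8 were tested, with a median log2 fold change of -0.55 and 5 of the 8 negative. Adipoq, an adipocyte hormone, was well above background on 2 of 3 control arrays and on no UVB array, Plin1 on 1 control array and Pck1 on none, so that these were not tested. Among the tested ones, Lpl fell by 1.26 ± 0.21 (limma adjusted p = 0.0181). Fabp4, a fatty acid carrier also made by endothelium, rose by 4.80 ± 0.77 (limma adjusted p = 0.0158). Cidec, which no UVB array had well above background, had a log2 fold change of -2.66 ± 0.48 (limma adjusted p = 0.0208). The log2 of the summed signal of the 8 tested markers ranged from 1.48 to 2.34 in controls and from 2.90 to 4.88 after UVB, where Fabp4 alone stood at 2.49 to 4.80. The part of these markers in the members' values was not tested.

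Markers of other skin cells moved in both directions. Of 7 basal keratinocyte markers 3 fell and none rose, with a median log2 fold change of -0.48, the same as over all 36 members. They were Itga6 (-0.61 ± 0.12), an integrin subunit, Col17a1 (-0.48 ± 0.11), a hemidesmosome collagen, and Trp63 (-0.51 ± 0.12), a transcription factor of the basal layer. The log2 of the summed basal signal ranged from 10.63 to 10.95 in controls and from 10.50 to 10.68 after UVB. Of 7 differentiated keratinocyte markers 4 rose, Ivl (1.61 ± 0.15), Krt2 (4.62 ± 0.68), Lor (0.76 ± 0.15) and Flg (3.70 ± 0.75), and the keratin Krt77 fell (-1.05 ± 0.22). Their median was 1.13, and the log2 of their summed signal ranged from 10.38 to 10.81 in controls and from 11.31 to 11.59 after UVB.

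Immune cell markers fell in 5 of 6 tested cases, with a median of -1.13. They were the macrophage receptor Adgre1 (-1.88 ± 0.11), the T cell receptor chains Cd3g (-2.05 ± 0.18) and Cd3e (-0.67 ± 0.17), the Langerhans cell lectin Cd207 (-1.41 ± 0.18) and the pan-leukocyte phosphatase Ptprc (-0.84 ± 0.18). The log2 of the summed signal of all 6 tested markers ranged from 4.80 to 5.07 in controls and from 4.36 to 4.62 after UVB. That sum includes Itgam, the marker that did not pass, whose log2 fold change was positive (0.64 ± 0.18, limma adjusted p = 0.0618). It therefore does not give the size of the fall of the 5 named markers. All 5 melanocyte markers rose, with a median of 3.45. Mlana (4.38 ± 0.19), Tyrp1 (3.45 ± 0.21), Pmel (3.22 ± 0.21) and Dct (2.40 ± 0.20) act in melanosomes, and Slc45a2, a melanosome transporter that no control array had well above background, stood at least 7.60-fold higher. The log2 of the summed melanocyte signal ranged from 1.26 to 1.51 in controls and from 4.04 to 4.68 after UVB.

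Hair follicle markers rose in 11 of 12 cases, with a median of 8.44. Those with the smallest p were Tchh (7.33 ± 0.46) and Krt27 (8.48 ± 0.53) of the inner root sheath, and the largest value was that of Krt25 (11.05). Krt25 and Padi3 were well above background on 1 of 3 control arrays, which limits their values. No control array had Krt33b or Krtap22-2 well above background, and they stood at least 684-fold and 790-fold higher. The log2 of the summed signal of all 12 ranged from 4.17 to 4.46 in controls and from 8.23 to 10.23 after UVB. Most of the control sum was Krt85, the marker that did not rise (-0.49 ± 0.21), which alone stood at 3.77 to 4.19 in controls. The fibroblast collagens Col1a1 (2.35 ± 0.46), Col1a2 (1.70 ± 0.37) and Col3a1 (1.91 ± 0.43) rose among 5 tested fibroblast markers, whose summed signal ranged on the log2 scale from 2.26 to 3.50 in controls and from 4.04 to 4.61 after UVB. Of 5 tested skeletal muscle markers, those with the smallest p did not pass, the myosin Myh4 at -2.54 ± 0.69 and the troponin Tnnt3 at -1.23 ± 0.79 (limma adjusted p = 0.0614 and 0.333). The log2 of the summed muscle signal ranged from -1.31 to 0.98 in controls and from -1.85 to -0.26 after UVB. The part of any of these cell types in the members' values was not tested.

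Related genes that are not members were counted in lists of their own. Of 13 other sterol genes, 1 fell and 1 rose, with a median log2 fold change of -0.29. Dhdds, which makes dolichol, fell by 0.51 ± 0.11. Idi2, a second isopentenyl isomerase, rose by 3.80 ± 0.75 (limma adjusted p = 0.0319 and 0.0274). Idi2 stood at -3.74, -3.57 and -0.84 in controls and at 1.13, 1.00 and 1.12 after UVB, so that control array 3 lay far above the other controls.

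Of 19 tested fatty acid genes outside the members, 3 fell and none rose, with a median of -0.33. Acss2, which makes acetyl-CoA from acetate, stood at 2.43, 2.85 and 2.64 in controls and at 1.24, 1.04 and 1.34 after UVB. It was the strongest fall of the list (log2 fold change -1.43 ± 0.16, limma adjusted p = 0.00535). Slc25a1, the mitochondrial citrate carrier upstream of Acly, and Acsl4, an acyl-CoA synthetase, fell by 0.94 ± 0.13 and 0.91 ± 0.14 (limma adjusted p = 0.0108 and 0.0135).

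Of 18 triglyceride and wax genes, 5 fell and 1 rose, with a median of -0.84. Agpat2, an acyltransferase of triglyceride synthesis, and Plin2, which coats lipid droplets, each had a log2 fold change of -1.44 (limma adjusted p = 0.00416 and 0.00749). Dgat1, whose product does the same reaction as that of Dgat2, fell by 0.96 ± 0.21, where Dgat2 gave the positive value above. The difference between Dgat1 and Dgat2 was not tested.

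Cholesterol efflux and oxysterol genes had 3 falls in 12 tested genes and a median of -0.20. Nr1h3, which encodes the oxysterol receptor LXR alpha, fell by 1.07 ± 0.19, and Cyp27a1, a sterol hydroxylase, fell by 0.80 ± 0.14 (limma adjusted p = 0.0212 and 0.0214). Ch25h, which makes an oxysterol, had a log2 fold change of -3.24 ± 0.31 with 1 of its 3 UVB values well above background. Of 12 genes of fatty acid oxidation 2 fell, Ppara (-1.33 ± 0.17), a fatty acid receptor, and Acadl (-0.83 ± 0.15), an acyl-CoA dehydrogenase. Among the lists of lipid genes outside the members, barrier lipid genes alone had a positive median, 0.42. Of these 20 genes 4 were higher, among them Degs2 (1.97 ± 0.31) and Sptlc2 (0.56 ± 0.12) of ceramide synthesis. The 2 lower ones were Cers4 (-1.09 ± 0.25) and Fa2h (-1.31 ± 0.32).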

How the data were processed

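Skin RNA of 3 control and 3 UVB mice was labelled with Cy3 from 0.2 µg of RNA, per the labels, and groups and replicate numbers follow the sample titles. The authors deposited the scanner intensity of each array, extracted with Agilent Feature Extraction 10.7.1.1 per the file headers and the submitters' processing notes, with spatial detrending and surrogate values for dim spots and no scaling between arrays. They also deposited a table of log2 values whose columns are alike once sorted, with a median of 4.95 in each. No source used here gives how it was made, and it served as an alternative.

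Log2 intensity minus the 75th percentile of each array was used. Control spots and outlier spots were dropped, replicate spots were averaged within a probe, and a probe with no remaining spot on an array was not tested. The UVB minus control contrast was fitted with limma 3.58.1 (lmFit, eBayes) under R 4.3.3, without covariates. Tests were two-sided, with Benjamini-Hochberg adjustment over 24344 targets at 0.05, and errors are limma standard errors. Each group held 3 mice with a separate array for each, so p-values rest on the spread between mice together with that of labelling and array. Any other difference between the groups, such as in anesthesia, cannot be told apart from UVB. Member probes were taken by gene name, and other probes were named through a RefSeq table of GRCm38.p6, used for names and promoters only. Positions of probes come from the array files (mm9). The fit was tested on simulated data. The members, lists and arms were chosen with earlier results of these data known. All members are named, with the 2 genes of smallest p in each other list, the called genes of lists with 5 or fewer calls, and further examples chosen after their values were seen. Alternatives were quantile and median scaling, normexp with offset 50, the deposited table, other filters, the mean of probes, eBayes with trend and robust, array weights, a replicate block and leaving out each array.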

Additional observations from a re-analysis of the deposited data

Results flagged for a closer look

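Fads2 was outside the test because neither of its 2 probes was well above background on 3 arrays. One of them was well above background on UVB replicate 3, at -3.88, above the highest control value of -4.82, and also on control replicate 3. It was not well above background on the other arrays, and no array had the other probe well above background.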

How the results depend on the processing

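No sterol enzyme or fatty acid gene was called higher under any alternative run. At an unadjusted p under 0.05, limma counted 0 of either arm higher and 9 sterol enzymes and 7 fatty acid genes lower. The 7 falling sterol enzymes were 6 to 9 under all alternatives with all arrays except the replicate block. The 2 falling fatty acid genes were 1 with median scaling or no filter on dim probes, 5 with normexp or with eBayes with trend and robust, and 7 with array weights. The labels do not say that same-numbered arrays share an animal, litter or day, so the numbers were not taken as pairs. The r between same-numbered arrays was -0.11, -0.26 and -0.08 for the 3 numbers. With 3 arrays a group, these values cannot settle whether such arrays share a litter or day. With the replicate block, 0 sterol enzymes and 0 fatty acid genes fell (limma, 9 and 6 at an unadjusted p under 0.05, smallest adjusted p = 0.0647 and 0.0666), and over all targets 480 were higher and 308 lower, against 1352 and 1709 without it. Its fewer residual degrees of freedom are part of its construction. Over all targets 2557 were higher with normexp, 2414 were higher and 3128 lower with array weights, and 1062 were lower without the filter. With 1 array left out the counts ran from 1 to 7 for falling sterol enzymes, from 0 to 4 for falling fatty acid genes, from 435 to 979 for higher targets and from 339 to 1078 for lower targets. The sterol median was -0.54 both with median scaling, which moves the median of all targets from -0.04 to -0.14, and with array weights, and -0.56 to -0.36 with 1 array left out. The fatty acid median ran from -0.73 to -0.43 over all of these.

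Signs changed for 8 members that did not pass, and the cause was not tested. Hsd17b7 was at -0.0267 and Fads1 at 0.12 with normexp, and Stard4 at -0.0161 with the mean of probes. With quantile scaling Dhcr7 was at 0.00794 and Acaca at 0.0329, and with the deposited table at 0.00678 and 0.0312. Acaca was at 0.0239 with the mean of probes, and Scd2 at -0.0848 with median scaling, -0.0709 with normexp and -0.0328 with array weights. With 1 array left out, Tm7sf2 ran from -0.0018 to 0.22, Dhcr7 from -0.29 to 0.20, Acaca from -0.15 to 0.0433, Elovl1 from -0.20 to 0.16, Scd2 from -0.27 to 0.20 and Fads1 from -0.46 to 0.0883. The second Fdft1 probe was well above background on 3 of 6 arrays, which limits its value.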
